A study of Mus musculus with 12 samples.

Results

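The comparison described here is between hilar and peripheral intrahepatic cholangiocyte organoids of mice homozygous for the Ndr allele of Jag1. Its members were chosen from the count table by genotype and liver region and were paired by the mouse number in the library name, which gave 6 of the 12 libraries: mice 1224, 1220 and 1219 each gave 1 hilar and 1 peripheral library. In each of these 3 mice both regions yielded a culture, both cultures carried Jag1 Ndr/Ndr, both were untreated and both were at passage 5 when total RNA was taken. The other 6 libraries came in the same way from 3 WT (Jag1 +/+) mice, 1221, 1225 and 1223, and are used only to share the estimate of spread and for the test of whether the regional difference depends on genotype. Organoids are epithelial cultures grown from duct fragments in a gel, so the stroma, vessels and bile flow of the liver are absent, and the allele was present in every cell of the animal and not only in the bile ducts. Strain, age and sex are not described here.

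Bile leaves the liver through a tree of ducts that are small at the periphery and join into larger ducts at the hilum, and the cells that line it, the cholangiocytes, modify bile, carry a sensory primary cilium and divide when ducts are injured. Jag1 is a membrane-bound ligand of the Notch receptors, through which neighbouring cells drive biliary fate and duct formation. JAG1 mutations are the main cause of Alagille syndrome, in which intrahepatic ducts are scarce, and Ndr is a missense change of the mouse gene. The comparison asks whether organoids from the 2 regions of a mutant liver differ in the genes they express once they have been cultured apart. Values below are CPM (read counts scaled to library size with TMM factors), are given for mice 1224, 1220 and 1219 in that order, and log2 differences are hilar minus peripheral with the standard error of the paired edgeR fit (n = 3 Ndr mice). That standard error is the absolute log2 difference divided by the square root of the F statistic in the fit of all 12 libraries. It is not the spread of the 3 pair differences alone.

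The 6 libraries held 7129887 to 11494954 counts and 19763 to 20479 genes with a count. Mitochondrially encoded genes took 0.685% to 1.964% of counts in 5 of them and 4.309% in the peripheral library of mouse 1219. Both cultures of a mouse have the same derivation date in the labels, so the date is held within the pairing. The counts did not bear out the pairing in every mouse. Deviations of the hilar and peripheral library from their group means, across genes, had a correlation of 0.14 in mouse 1224, -0.34 in mouse 1220 and -0.314 in mouse 1219, against 0.306 for hilar 1220 with peripheral 1219 and 0.455 for hilar 1219 with peripheral 1220. Of 35 genes that sat on 2 separate levels, 13 kept both libraries of every mouse on the same level and the others split at least 1 mouse. Of those 13 genes 4 set mouse 1220 apart from mouse 1219, and 0 of the 35 had the crossed pattern. The pairing was taken from the labels. Cep85 is 1 of the 4 genes, at 38.8 and 29.9 CPM in the hilar and peripheral libraries of mouse 1220 and at 575.0 and 268.5 CPM in those of mouse 1219. Gene length moved with the regional difference within mice, and in opposite directions. Across 14986 genes the Spearman correlation of the hilar minus peripheral difference with exon length was 0.0642 in mouse 1224, 0.48 in mouse 1220 and -0.487 in mouse 1219, and these genes are not independent replicates. Long genes were thus higher in the hilar culture of mouse 1220 and lower in that of mouse 1219. An edgeR fit with a length offset for each gene and library, chosen after seeing the data, gave list medians of -1.54 for proliferation, -0.91 for cholesterol synthesis, -0.94 for hypoxia and glycolysis, 0.52 for primary cilium and 1.82 for plasma proteins. The plasma protein median is over the 16 of 34 genes that passed the filter on low counts. The smaller median without that filter is given with those genes. The values below are from the fit without it unless a sentence says otherwise.

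**Figure D1:**
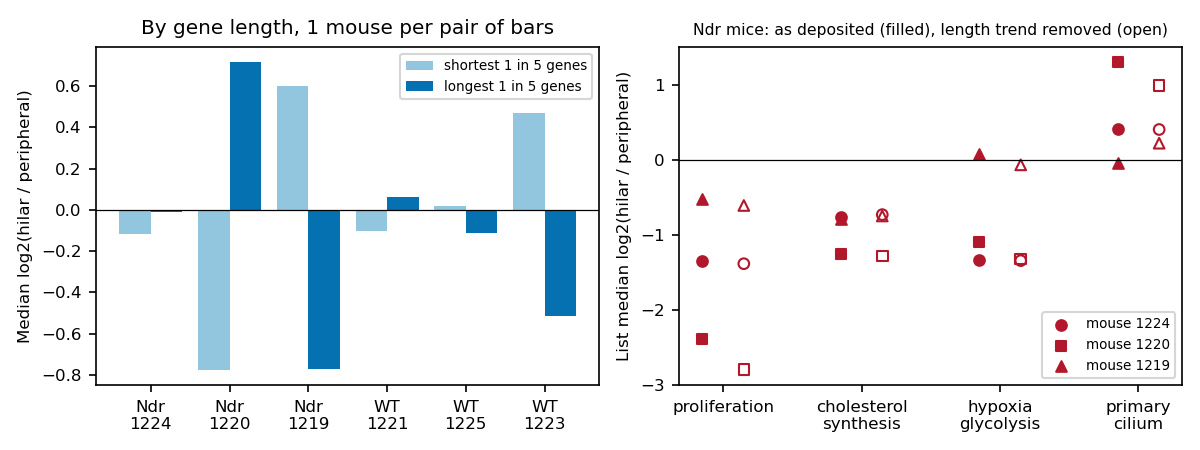
Left, median log2 ratio of hilar to peripheral CPM over the shortest and the longest genes (outer quintiles) in each mouse; right, the median of 4 gene lists in each Ndr mouse (1 symbol per mouse) as deposited (filled) and after removal of the length trend (open). The longest genes have a median of 0.714 in mouse 1220 and -0.773 in mouse 1219, while the proliferation and cholesterol synthesis medians are below 0 in all 3 Ndr mice on both scales.

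All 6 cultures expressed the bile duct epithelial markers. The 10 markers, among them Krt19, Krt7, Epcam, Sox9 and Spp1, summed to 13032 to 14179 CPM in hilar and 11176 to 21038 CPM in peripheral cultures, and each exceeded 1 CPM in at least 1 library. Fibroblast and stellate markers summed to at most 1.79 CPM with 4 of 7 at 0 in all 6 libraries, endothelial markers to at most 0.207 CPM with 2 of 4 at 0, and neural markers to at most 1.02 CPM with 2 of 3 at 0. Immune markers summed to 1.74 to 3.06 CPM in hilar and 3.11 to 6.496 CPM in peripheral cultures. Hepatocyte markers summed to 47.9 to 96.1 CPM in hilar and 9.81 to 22.005 CPM in peripheral cultures, with 2 of 7 at 0 throughout. Gut and pancreas markers ran from 9.93 to 16.0 CPM in hilar and from 14.5 to 86.7 CPM in peripheral cultures, and mesothelial markers reached 25.98 CPM in a single peripheral culture. Longer lists held more. The 20 fibroblast and stellate genes summed to 23.5 to 64.7 CPM in hilar and 1.98 to 87.4 CPM in peripheral cultures. The 18 endothelial genes summed to 11.9 to 22.2 and 21.7 to 74.5 CPM. Col6a1 (67.4 CPM) and Flt1 (60.3 CPM) were highest in the peripheral culture of mouse 1224. The 22 immune genes reached 998 CPM there, 967 CPM of it Cd14. Postn was at 2.81, 19.9 and 16.6 against 0, 0.0943 and 1.03 CPM, with no overlap.

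No single gene passed correction in edgeR, and several gene groups had medians of the same sign in all 3 mice. With mouse as a block, edgeR's quasi-likelihood test called 0 of 15014 genes at an adjusted p under 0.05 (0%), and the smallest adjusted p was 0.506. At an unadjusted p under 0.05 there were 1270 genes (8.46%), 563 higher (3.75%) and 707 lower (4.71%) in hilar cultures. That count was 816 of 14351 genes with the Ndr libraries alone and 796 of 15278 without mouse 1224, where 421 were higher and 375 lower, and it was 2385 of 15136 without mouse 1219. DESeq2 with the same block called 346 genes (2.3%), 167 higher (1.11%) and 179 lower (1.19%), and limma-voom called 0 (0%), with 1359 at an unadjusted p under 0.05 (9.05%). The 3 hilar values lay above all 3 peripheral values for 1125 genes (7.49%) and below them for 1190 (7.93%). Hilar exceeded peripheral in 3 of 3 mice for 1927 genes (12.8%) and was lower in 3 of 3 for 1916 (12.8%). The median standard error of a log2 difference was 0.382, against a median absolute difference of 0.283.

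**Figure D2:**
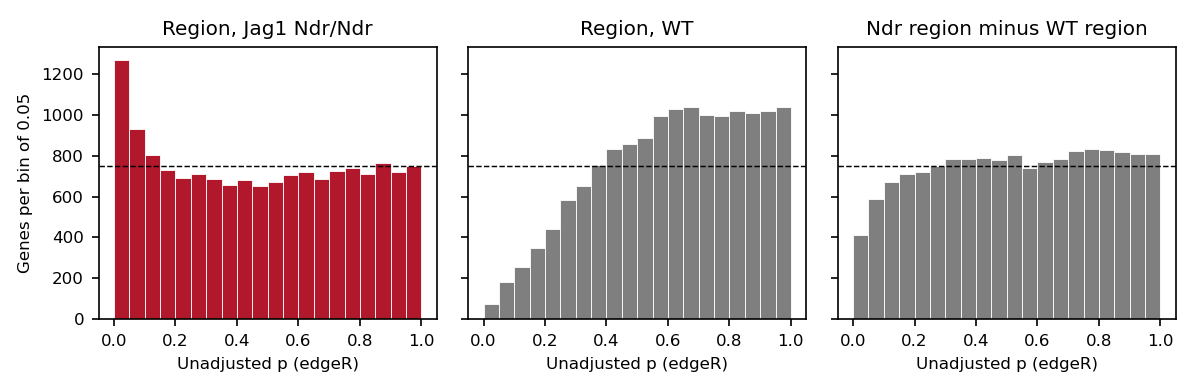
Number of genes in each bin of unadjusted edgeR p-values (bin width 0.05) for the hilar minus peripheral difference in Jag1 Ndr/Ndr mice, the same in WT mice and the difference between them; the dashed line is the level of an even spread. The lowest bin holds 1270 genes in Ndr, 72 in WT and 413 for the difference, and those of WT and of the difference lie below the dashed line.

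The 12 genes of smallest p that were higher in hilar cultures included complement proteins, surface receptors and enzymes of the cell surface. C4b, the complement C4 gene whose product is a thioester opsonin, was at 63.3, 8.099 and 18.3 CPM in hilar and 4.76, 0.283 and 0.207 CPM in peripheral cultures, a log2 difference of 4.63 ± 0.59 (edgeR adjusted p = 0.506; DESeq2 adjusted p = 8.04e-11). The groups did not overlap, although the count of C4b is uncertain because its near-identical copy C4a can share reads with it. Cfi, the protease that inactivates C3b and C4b, was at 125, 274 and 315 CPM in hilar and 22.2, 18.96 and 44.3 CPM in peripheral cultures (log2 3.05 ± 0.49). Here too every hilar value exceeded every peripheral value. Fgfr3, a fibroblast growth factor receptor, was at 221, 67.8 and 55.5 against 92.7, 16.5 and 13.3 CPM (log2 1.78 ± 0.28), and its groups overlapped because mouse 1224 was high in both regions. St8sia4, which makes polysialic acid, was at 257, 1032 and 217 against 22.2, 86.8 and 11.1 CPM (log2 3.79 ± 0.64), with its highest value in the hilar culture of mouse 1220.

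Alpl, the tissue-nonspecific alkaline phosphatase, was at 18.6, 169 and 6.77 CPM in hilar cultures and at 2.01, 0.754 and 0 CPM in peripheral cultures, where mouse 1219 had no count (log2 5.67 ± 1.02). Tmeff2, a transmembrane protein with follistatin-like domains, was at 31.02, 128 and 12.96 against 0.64, 0.189 and 0.103 CPM (log2 7.13 ± 1.43). Both sets of values were separate, and both genes were highest in the hilar culture of mouse 1220. Chrm3, the muscarinic M3 receptor, was almost even across hilar cultures at 18.3, 15.9 and 14.7 CPM and lay at 2.65, 0.472 and 1.55 CPM in peripheral ones (log2 3.57 ± 0.54). Bambi, a decoy receptor that dampens BMP and activin signalling, was at 11.4, 26.8 and 5.61 against 2.74, 2.64 and 0.723 CPM (log2 2.77 ± 0.56), with no overlap between regions. The other 4 were Syne4, Triqk, Pdzk1ip1 and Chpt1, at log2 differences from 1.78 (Chpt1, the last enzyme of phosphatidylcholine synthesis from choline) to 3.34 (Syne4, which tethers kinesin to the nuclear envelope).

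The 12 genes of smallest p that were lower in hilar cultures included proteins of the membrane, of adhesion to laminin and of the actin cytoskeleton. Ehd2, an ATPase that stabilises caveolae at the plasma membrane, was at 18.3, 3.004 and 16.9 CPM in hilar and 134, 49.9 and 102 CPM in peripheral cultures (log2 -3.13 ± 0.46, edgeR adjusted p = 0.506; DESeq2 adjusted p = 2.53e-08). Itga6, the laminin-binding integrin alpha 6 chain, was at 87.2, 35.1 and 61.3 against 313, 160.3 and 181 CPM (log2 -1.86 ± 0.32). Inf2, an actin-assembling formin, was at 61.7, 27.95 and 30.2 against 134, 97.9 and 118 CPM (log2 -1.63 ± 0.29). In all 3 genes the highest hilar value lay below the lowest peripheral value. Capn2, a calcium-dependent protease, was at 73.3, 49.4 and 48.3 against 184, 115 and 169 CPM (log2 -1.45 ± 0.29). Dock11, an exchange factor for the small GTPase Cdc42, was at 19.7, 8.36 and 19.9 against 48.5, 50.1 and 59.9 CPM (log2 -1.81 ± 0.36). Sema4g, a semaphorin, was at 33.7, 8.75 and 6.67 against 122, 92.9 and 25.001 CPM (log2 -2.37 ± 0.46), and mouse 1219 had the lowest values in both regions. Kctd11, AU020206, Sgsm1, Gm5873 and Naip6, which belongs to a family of near-identical genes and is uncertain for that reason, ran from -3.11 (Naip6) to -1.30 (Gm5873). The lower group also held Jag2, described with the Notch genes. All 24 genes kept their direction in the 11 other fits run on them, each stayed within 1.5 times its log2 difference, and DESeq2 called each of the 24. The genes were chosen from the same counts for a small p and the same sign in 3 mice. Agreement between these fits is therefore no independent check of them.

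**Figure D3:**
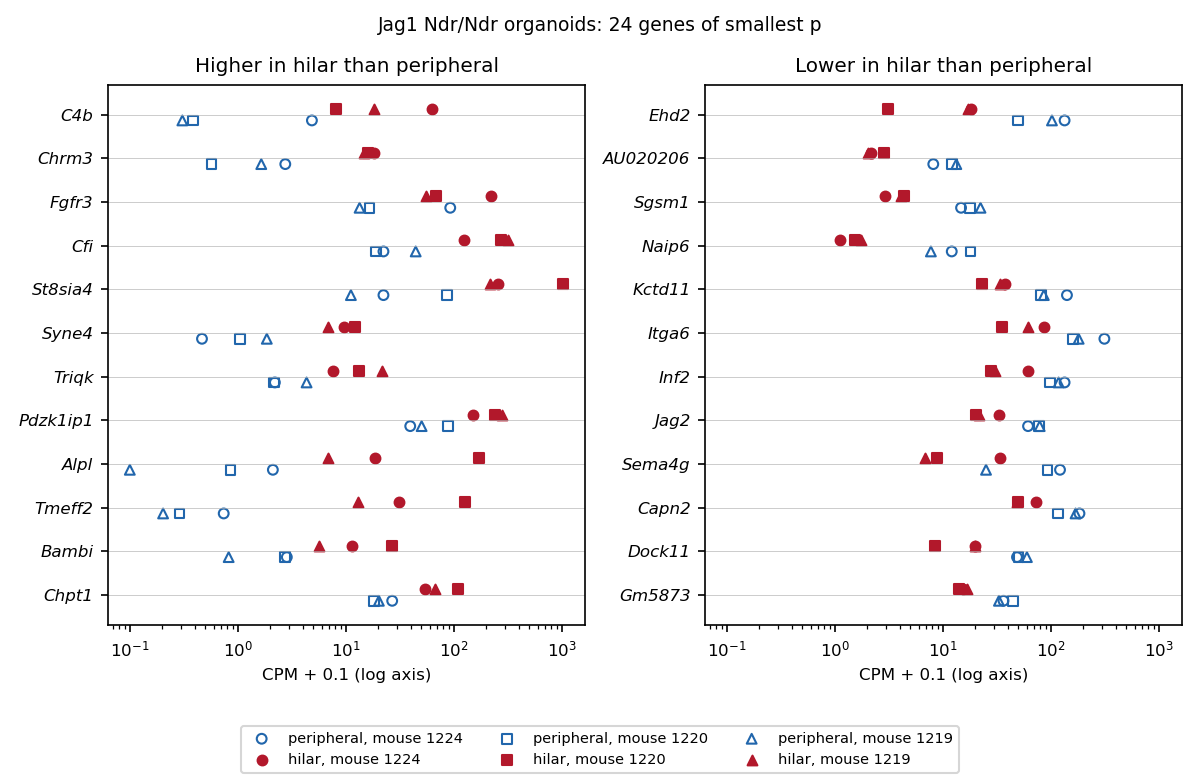
CPM plus 0.1 (log axis) of the 24 genes in the 3 hilar (filled) and 3 peripheral (open) Jag1 Ndr/Ndr cultures, with 1 symbol shape per mouse. Fgfr3 in the left panel and Sema4g in the right are the genes whose hilar and peripheral values overlap, and Alpl spans the widest range, from 0 to 169.4 CPM.

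Genes of the cell division cycle had lower values in hilar cultures. Of 49 matched proliferation genes, 49 passed the filter on low counts and 49 had a log2 difference below 0, against 52.2% of all genes tested, and the list median was -1.55 against -0.02 over all genes. Values were lower in hilar cultures in 3 of 3 mice for 37 genes, and for 37 genes the groups did not overlap. In edgeR 30 had an unadjusted p under 0.05, and DESeq2 called 13. Over all genes tested the shares in that direction, in the same order, were 12.8%, 7.93%, 4.71% and 1.19%. Plk1, a mitotic kinase, was at 5.49, 4.703 and 7.16 CPM in hilar and 22.2, 45.1 and 26.6 CPM in peripheral cultures (log2 -2.38 ± 0.56, edgeR adjusted p = 0.506, DESeq2 adjusted p = 0.00316). Top2a, the topoisomerase that untangles replicated chromosomes, was at 60.1, 51.9 and 89.4 against 223, 323 and 224 CPM (log2 -1.95 ± 0.51). Mki67, the gene of the Ki-67 antigen, was at 20.05, 28.9 and 23.2 against 86.003, 120.1 and 126 CPM (log2 -2.20 ± 0.73). In these 3 genes every hilar value was below every peripheral value. E2f1, which switches on the genes of DNA synthesis, was at 11.2, 6.27 and 10.7 against 24.8, 28.8 and 19.1 CPM (log2 -1.38 ± 0.36), and Rrm2, a subunit of ribonucleotide reductase, was at 14.2, 10.1 and 31.8 against 81.8, 175 and 52.3 CPM (log2 -2.44 ± 0.75). The replication factors differed less: Mcm7, of the replicative helicase, was at 67.5, 61.3 and 90.2 against 96.9, 129 and 79.96 CPM, and Pcna, the sliding clamp, at 45.1, 43.1 and 80.7 against 89.1, 136 and 53.4 CPM. Both overlapped between regions, with mouse 1219 higher in its hilar culture.

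The size of the proliferation difference depended on the mouse. The list median was -1.36 in mouse 1224, -2.39 in mouse 1220 and -0.52 in mouse 1219, and without mouse 1220 the fitted median was -0.983. With the length trend removed the 3 mice stood at -1.39, -2.80 and -0.61. In WT mice the median of the same genes was -0.09, with -0.41, 1.33 and -1.27 in mice 1221, 1225 and 1223. In these bulk libraries fewer dividing cells and less RNA per dividing cell cannot be told apart.

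The cholesterol synthesis pathway, which builds sterols from acetyl-CoA under control of the SREBP factors, had lower values in hilar cultures, and this difference was more even across mice. Of 29 genes, all of which passed the filter, 28 had a log2 difference below 0 and the median was -0.89. In 3 of 3 mice 27 were lower, 22 did not overlap, 19 had an unadjusted edgeR p under 0.05 and DESeq2 called 5. Over all genes tested the shares in that direction were 12.8%, 7.93%, 4.71% and 1.19%. Hmgcs1, the synthase at the head of the mevalonate route, was at 191, 192 and 206 CPM in hilar and 422, 462 and 457 CPM in peripheral cultures (log2 -1.19 ± 0.28, edgeR adjusted p = 0.506, DESeq2 adjusted p = 0.0105). The 3 hilar values lay close together, as did the 3 peripheral values. Fdps, which makes farnesyl pyrophosphate, was at 17.6, 12.02 and 14.5 against 32.02, 42.8 and 37.3 CPM (log2 -1.35 ± 0.29). Hsd17b7, which acts in the later sterol steps, was at 25.3, 30.3 and 23.8 against 51.7, 53.002 and 62.5 CPM (log2 -1.08 ± 0.25). No hilar value of these 3 genes reached a peripheral value. Insig1, a sterol-sensing brake on SREBP processing, was at 86.1, 61.8 and 109.8 against 166, 141 and 157 CPM (log2 -0.89 ± 0.26). The fatty acid side of the list was mixed. Fasn, fatty acid synthase, was at 241, 433 and 86.8 against 216, 166 and 456 CPM, and Srebf1 at 244, 241 and 116 against 184, 139 and 202 CPM. Both overlapped and had no common direction. Scd1 was at 110, 91.6 and 58.4 against 190, 220 and 375 CPM (log2 -1.56 ± 0.54), with no overlap. Scd2 was at 2199, 1688 and 989 against 3014, 1837 and 3604 CPM, lower in 3 of 3 mice with overlapping groups. Medians by mouse were -0.76, -1.26 and -0.79, and -0.73, -1.28 and -0.75 with the length trend removed. The median in WT mice was 0.02, with -0.36, 0.60 and -0.24 by mouse.

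Both groups are known for promoter elements that could be read in the reference sequence: the sterol element bound by SREBP, searched as TCACNCCAC, the cell cycle homology region of late cell cycle genes, searched as TTTGAA or TTCGAA, and the CCAAT box bound by NF-Y, searched as CCAAT, each on both strands. None of these motifs contains another, and TTCGAA reads the same on both strands. RefSeq promoter windows (GRCm38.p6, 250 bases before to 50 after the start) were matched for 9993 tested genes, among them 19 of the cholesterol and 40 of the proliferation genes. CCAAT was present for 43.4% of the 9993 genes, for 18 of the 19 cholesterol genes (94.7%) and for 28 of the 40 proliferation genes (70.0%). The cell cycle element was present for 16.3% of all, for 18 of 40 proliferation genes (45.0%) and for 2 of 19 cholesterol genes (10.5%). The sterol element as spelled was present for 1.4% of all and for 1 of 19 cholesterol genes (5.3%), Hmgcs1. These are matches of letters in a window, described without a test. The windows of 2 genes of each group with separate hilar and peripheral values follow, 5′ to 3′ on the gene's strand, with capitals on the CCAAT box (either strand) and on the element of the group.
Hmgcs1 (chr13:119690101-119690400, plus strand): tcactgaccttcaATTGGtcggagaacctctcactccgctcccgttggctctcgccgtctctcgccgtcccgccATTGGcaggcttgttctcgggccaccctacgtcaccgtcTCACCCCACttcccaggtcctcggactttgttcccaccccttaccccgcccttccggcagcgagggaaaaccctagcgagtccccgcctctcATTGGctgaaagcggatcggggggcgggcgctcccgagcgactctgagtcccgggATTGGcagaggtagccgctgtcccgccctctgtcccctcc
Hsd17b7 (chr1:169969156-169969455, minus strand): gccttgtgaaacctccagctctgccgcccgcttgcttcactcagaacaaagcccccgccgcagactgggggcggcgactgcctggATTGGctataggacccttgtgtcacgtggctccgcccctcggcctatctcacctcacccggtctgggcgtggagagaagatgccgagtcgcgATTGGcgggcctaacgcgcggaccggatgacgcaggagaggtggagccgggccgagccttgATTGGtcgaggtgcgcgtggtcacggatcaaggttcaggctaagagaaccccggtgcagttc
Plk1 (chr7:122159185-122159484, plus strand): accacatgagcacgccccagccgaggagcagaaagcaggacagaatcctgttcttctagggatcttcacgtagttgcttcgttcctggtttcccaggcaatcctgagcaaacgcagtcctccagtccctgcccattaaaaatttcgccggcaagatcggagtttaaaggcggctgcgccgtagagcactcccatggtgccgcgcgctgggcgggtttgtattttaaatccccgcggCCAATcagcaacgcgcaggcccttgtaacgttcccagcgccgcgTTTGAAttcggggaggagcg
Top2a (chr11:99024140-99024439, minus strand): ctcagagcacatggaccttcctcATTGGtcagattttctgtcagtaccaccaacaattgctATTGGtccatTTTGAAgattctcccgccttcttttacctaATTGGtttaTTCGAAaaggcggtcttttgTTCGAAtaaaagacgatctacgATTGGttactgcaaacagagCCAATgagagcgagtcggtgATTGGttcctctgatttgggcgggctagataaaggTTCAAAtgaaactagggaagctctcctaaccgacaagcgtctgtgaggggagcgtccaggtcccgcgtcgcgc
Hmgcs1 held the sterol element and 4 CCAAT boxes and Hsd17b7 held 3 CCAAT boxes, while Plk1 held 1 CCAAT box and 1 cell cycle element, and Top2a held 6 CCAAT boxes and 4 cell cycle elements.

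Glycolytic and hypoxia-responsive genes had lower values in the hilar cultures of 2 of the 3 mice. Of 37 genes, all of which passed the filter, 35 had a log2 difference below 0 (median -0.93). In 3 of 3 mice 14 were lower, 9 did not overlap, 14 had an unadjusted edgeR p under 0.05 and DESeq2 called 3. Over all genes tested the shares in that direction were 12.8%, 7.93%, 4.71% and 1.19%. The medians by mouse were -1.33, -1.10 and 0.07, and -1.35, -1.32 and -0.07 with the length trend removed. Pkm, pyruvate kinase, was at 1034, 678 and 1043 CPM in hilar and 2915, 2449 and 1685 CPM in peripheral cultures (log2 -1.35 ± 0.36), with no overlap. Ldha, lactate dehydrogenase, was at 604, 227 and 961 against 1703, 1866 and 864 CPM (log2 -1.46 ± 0.64), and mouse 1219 ran the other way. Ndrg1, a gene induced by low oxygen, was at 105, 5.23 and 70.3 against 689, 205 and 94.3 CPM (log2 -2.74 ± 1.15), with the lowest value in the hilar culture of mouse 1220. Vegfa, the angiogenic factor, was at 255, 150.3 and 124 against 316, 82.3 and 204 CPM and showed no common direction. In WT mice the median of this list was also below 0, at -0.50, and by mouse it was -1.10, -0.35 and 0.12.

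Most primary cilium genes had higher values in hilar cultures. Of 54 genes, all of which passed the filter, 48 had a log2 difference above 0, against 47.8% of all genes, with a median of 0.49. In 3 of 3 mice 19 were higher, 15 did not overlap, 9 had an unadjusted edgeR p under 0.05 and DESeq2 called 0. Over all genes tested the shares in that direction were 12.8%, 7.49%, 3.75% and 1.11%. Dync2li1, a light intermediate chain of the motor that returns cargo from the cilium tip, was at 65.2, 89.6 and 95.8 CPM in hilar and 33.2, 24.05 and 44.6 CPM in peripheral cultures (log2 1.32 ± 0.39, edgeR adjusted p = 0.506). Arl6, the GTPase that recruits the BBSome coat, was at 32.2, 47.9 and 51.6 against 18.7, 27.6 and 19.2 CPM (log2 1.001 ± 0.27), and Ift81, of the tubulin-carrying transport module, at 41.1, 65.97 and 56.6 against 25.98, 25.7 and 35.3 CPM (log2 0.90 ± 0.30). The hilar values of these 3 genes all lay above the peripheral ones. Other cilium genes ran in the direction of the length trend in mice 1220 and 1219: Pkhd1, the fibrocystin gene of recessive polycystic disease, was at 98.9, 209 and 25.5 against 45.01, 26.5 and 83.5 CPM, and Dync2h1, the heavy chain of the same motor, at 21.4, 57.5 and 9.48 against 17.5, 7.36 and 34.4 CPM. Foxj1, a ciliogenesis factor, was at 135, 125 and 103 against 23.97, 78.6 and 71.1 CPM (log2 1.21 ± 0.64), higher in 3 of 3 mice. The list medians by mouse were 0.41, 1.301 and -0.04, and 0.41, 0.996 and 0.22 with the length trend removed; without mouse 1220 the fitted median was 0.22. The median in WT mice was -0.06, with 0.41, -0.11 and -0.49 in mice 1221, 1225 and 1223.

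**Figure D4:**
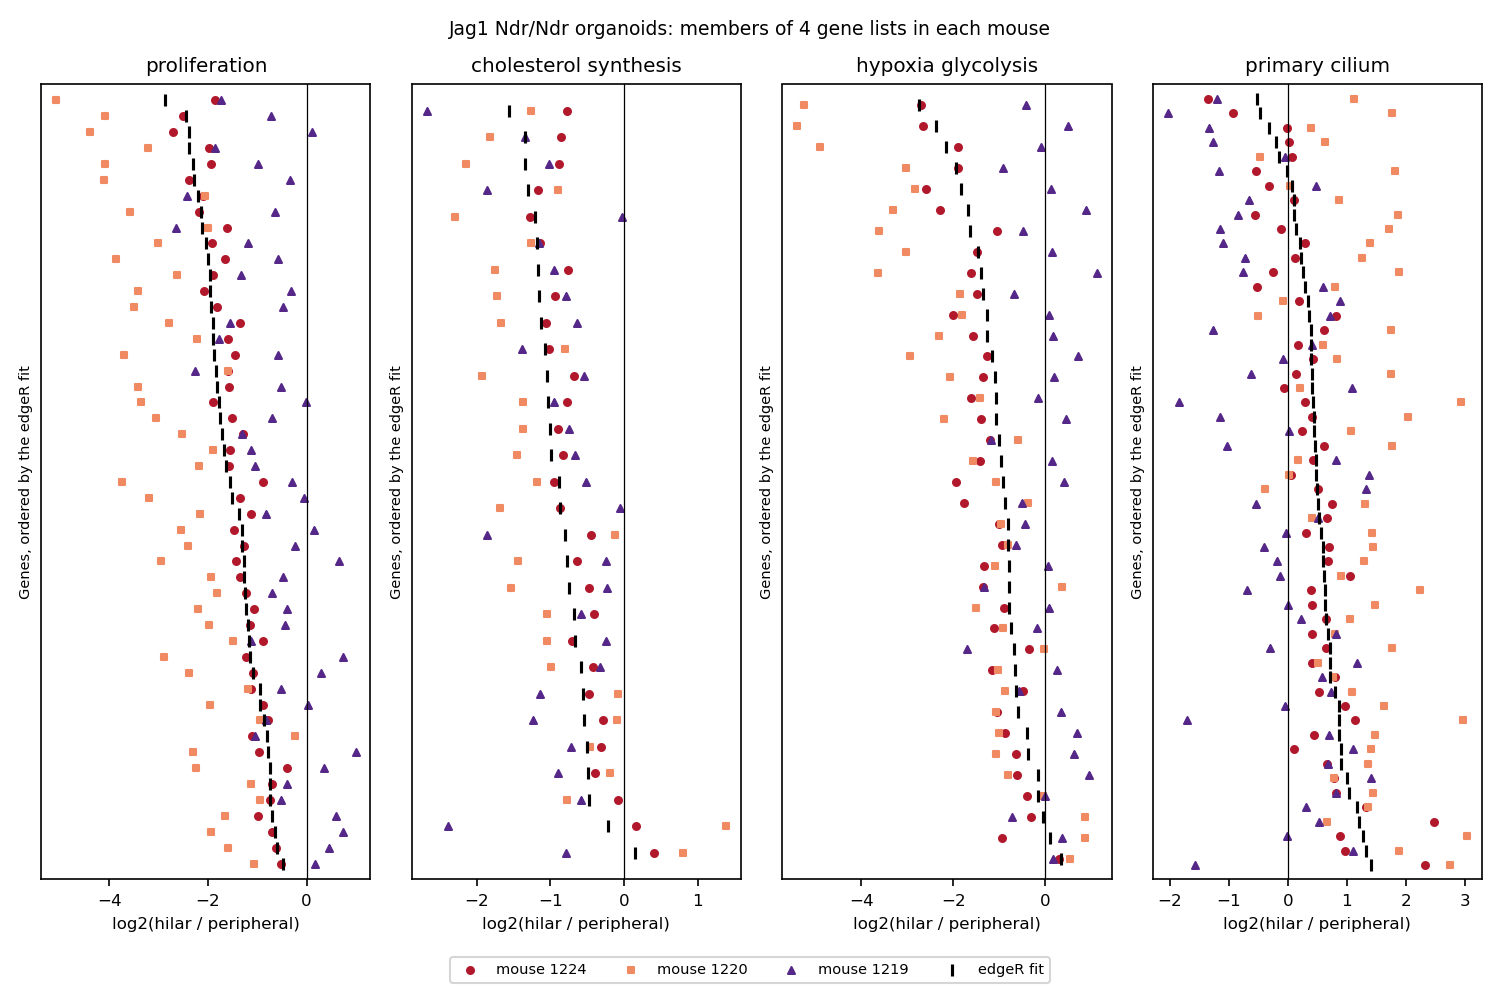
Log2 ratio of hilar to peripheral CPM of every tested member of 4 gene lists in each Jag1 Ndr/Ndr mouse (symbols), with the edgeR estimate as a bar, ordered by that estimate. The cholesterol genes lie closest together across mice, mouse 1220 lies farthest to the left for most proliferation genes, and mouse 1219 lies to the right of the other mice for most glycolytic genes.

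Among the Notch genes the ligand Jag2 had lower values in every hilar culture, and the receptors had no common direction. Jag2 was at 32.8, 19.99 and 21.6 CPM in hilar and 61.4, 77.8 and 78.7 CPM in peripheral cultures (log2 -1.58 ± 0.29, edgeR adjusted p = 0.506; DESeq2 adjusted p = 0.00153), with no overlap. Jag1 itself was at 139, 196 and 89.4 against 73.7, 80.4 and 154 CPM (log2 0.49 ± 0.51, edgeR adjusted p = 0.907), higher in the hilar culture of mice 1224 and 1220 and lower in that of mouse 1219. The allele is a missense change, so the amount of Jag1 RNA does not check the genotype labels. Of the receptors, Notch1 was at 14.4, 16.1 and 6.09 against 11.9, 7.54 and 27.997 CPM, Notch2 at 76.9, 139 and 29.7 against 80.8, 28.2 and 132 CPM, and Notch3 at 15.4, 17.8 and 4.55 against 1.098, 5.56 and 29.1 CPM. Each was lower in the hilar than in the peripheral culture of mouse 1219 and higher in mouse 1220, which is also the direction of the length trend in those mice. Of the 11 ligand and receptor genes 7 passed the filter, and of these 7 only Jag2 had the same direction in 3 of 3 mice.

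Some genes known as Notch targets had lower values in hilar cultures, Hey1 was higher in 3 of 3 mice, and Hes1 overlapped. Of 22 target genes 15 passed the filter, and 10 of these had a log2 difference below 0, against 52.2% of all genes. In 3 of 3 mice 5 were lower and 1 was higher, against 12.8% of all genes in each direction. The 5 were Nrarp, Ccnd1, Myc, Cdkn1a and Bhlhe40. The higher gene was Hey1, a Notch target of low count, at 0.638, 1.96 and 1.06 CPM in hilar and 0.366, 0 and 0.723 CPM in peripheral cultures (log2 1.79 ± 1.04). In edgeR 4 were lower at an unadjusted p under 0.05, against 4.71% of all genes. Ccnd1, the G1 cyclin D1, was at 594, 441 and 396 CPM in hilar and 1199.8, 1091 and 1305 CPM in peripheral cultures (log2 -1.35 ± 0.32, edgeR adjusted p = 0.506, DESeq2 adjusted p = 0.00717). Nrarp, a feedback inhibitor of the Notch complex, was at 2.68, 0.914 and 1.64 against 7.87, 6.04 and 3.93 CPM (log2 -1.80 ± 0.44, DESeq2 adjusted p = 0.039). Both were separate between regions. Hes1, the repressor most used as a Notch readout, was at 108, 111 and 109.9 against 129, 92.8 and 93.4 CPM (log2 0.08 ± 0.27), and Sox9, a biliary transcription factor, at 171, 242 and 93.5 against 102, 75.4 and 243 CPM (log2 0.39 ± 0.58). Ccnd1, Myc and Cdkn1a in this list also belong to the control of the cell cycle, whose genes are described above. Among 31 tested modifiers and core components 14 were above and 17 below 0 (median -0.07), with Dtx3, a Deltex ubiquitin ligase, at 30.003, 37.4 and 33.3 against 17.02, 7.26 and 15.9 CPM (log2 1.40 ± 0.45).

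The bile duct keratins had lower values in hilar cultures, and the other identity genes had no common direction. Krt19 was at 508, 201 and 586 CPM in hilar and 2977, 1661 and 1047 CPM in peripheral cultures (log2 -2.16 ± 0.63, edgeR adjusted p = 0.506, DESeq2 adjusted p = 0.0105). Krt7 was at 797, 693 and 1013 against 1397, 1588 and 1827 CPM (log2 -0.95 ± 0.33) and Krt8 at 1208, 875 and 1119 against 3287, 1699 and 2251 CPM (log2 -1.14 ± 0.37). All hilar values of the 3 keratins lay below all peripheral values. In the other direction, Atp1b1, a subunit of the sodium pump, was at 675, 688 and 473 against 438, 375 and 249 CPM (log2 0.81 ± 0.25, DESeq2 adjusted p = 0.0485). Prox1, a homeobox factor of the early hepatobiliary lineage, was at 32.2, 93.8 and 7.06 against 2.196, 0.849 and 6.41 CPM (log2 3.56 ± 1.35, DESeq2 adjusted p = 0.00575), and in mouse 1219 the regions were nearly equal. Spp1, osteopontin, was at 6495, 8389.5 and 7200.2 against 8280.1, 1608 and 1795 CPM (log2 1.39 ± 0.63), low in the peripheral cultures of mice 1220 and 1219. Epcam was at 721, 631 and 1158 against 348, 880.2 and 1274 CPM, and Cftr, the chloride channel of ductal secretion, at 13.02, 21.7 and 35.7 against 4.21, 31.4 and 47.7 CPM. Neither had a common direction. Of 37 tested identity genes 20 were above and 17 below 0, with a median of 0.16 that turned to -0.07 without mouse 1224 and to -0.02 without mouse 1220.

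Of 25 tested biliary transport genes 10 were lower in hilar cultures in 3 of 3 mice, and 0 were higher in 3 of 3 mice, against 12.8% of all genes in each direction. In edgeR 7 were lower at an unadjusted p under 0.05, against 4.71% of all genes, and 0 were higher, against 3.75%. Without overlap 1 was lower, against 7.93% of all genes, and DESeq2 called 1, against 1.19% lower over all genes. Abcc3, an exporter of glucuronides and bile acids, was at 344, 42.7 and 79.1 CPM in hilar and 487, 156 and 227 CPM in peripheral cultures (log2 -1.30 ± 0.34, DESeq2 adjusted p = 0.0297). Ano1, a calcium-activated chloride channel, was at 287, 227 and 194 against 488, 270.5 and 722 CPM (log2 -0.97 ± 0.35). Both were lower in the hilar culture of each mouse, while the groups overlapped. Slc12a2, the basolateral chloride importer, was at 519, 512 and 494 against 464, 390.1 and 516 CPM (log2 0.16 ± 0.27). The list median was -0.29 and changed sign to 0.03 without mouse 1219.

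A subset of plasma protein genes typical of hepatocytes had higher values in hilar cultures. Of 34 genes 16 passed the filter and 8 were at 0 in all 6 libraries; over the 29 genes with a count in any of the 12 libraries, tested without the filter, 20 were above and 9 below 0 with a median of 0.891. Trf, transferrin, was at 2636, 1781 and 4278 CPM in hilar and 1044, 648 and 462 CPM in peripheral cultures (log2 1.98 ± 0.60, edgeR adjusted p = 0.506, DESeq2 adjusted p = 0.0125), with no overlap. Alb, albumin, was at 14.7, 40.9 and 13.2 against 7.59, 0.377 and 0.31 CPM (log2 4.16 ± 1.28, DESeq2 adjusted p = 0.000482). Ttr, a thyroxine carrier, was at 51.96, 51.3 and 24.95 against 4.3002, 8.299 and 21.4 CPM (log2 2.17 ± 0.65). All hilar values of these 3 genes exceeded all peripheral ones. Apob, the apolipoprotein of very low density lipoprotein, was at 3.703, 0.392 and 15.4 against 154, 72.8 and 29.8 CPM, the opposite direction in all 3 mice. The hepatocyte marker sums given above were 47.9 to 96.1 CPM in hilar and 9.81 to 22.005 CPM in peripheral cultures, with 2 of the 7 markers at 0. All 7 markers, Alb and Ttr among them, are members of this list, so the sums are no second observation. Any part of hepatocytes in the result was not tested. In WT mice the median over the 16 genes was -0.24.

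Signalling genes gave differences within lists whose medians had no common sign across the 3 mice. Tnfrsf19, a receptor known as a Wnt target, was at 29.5, 47.03 and 27.6 CPM in hilar and 1.098, 1.603 and 8.06 CPM in peripheral cultures (log2 3.75 ± 1.02, DESeq2 adjusted p = 0.000448). Axin2, the common readout of Wnt signalling, was at 28.7, 87.1 and 32.5 against 94.1, 90.2 and 61.4 CPM (log2 -0.89 ± 0.36), lower in 3 of 3 mice. Inhbb, the activin beta B chain, was at 92.6, 111 and 66.9 against 53.9, 4.62 and 8.78 CPM (log2 2.75 ± 0.76, DESeq2 adjusted p = 0.00164). Etv4, a transcription factor switched on by ERK signalling, was at 10.5, 1.96 and 11.3 against 43.6, 25.8 and 22.3 CPM (log2 -2.17 ± 0.56), and the EGF receptor ligand Areg at 24.003, 1.57 and 8.12 against 76.3, 51.2 and 26.3 CPM (log2 -2.59 ± 0.94). The groups were separate for Tnfrsf19, Inhbb, Etv4 and Areg and overlapped for Axin2. Of 27 tested EGF receptor and ERK feedback genes 8 were lower and 3 higher in 3 of 3 mice (12.8% of all genes in each direction). Without overlap 7 were lower (7.93% of all genes) and 2 higher (7.49%). At an unadjusted edgeR p under 0.05, 6 were lower (4.71% of all genes) and 2 higher (3.75%). Inpp4b, a lipid phosphatase that limits AKT signalling, was at 0.766, 0.784 and 0.967 against 6.13, 9.81 and 4.65 CPM (log2 -2.93 ± 0.62). Igf2, the growth factor, was at 1.53, 26.9 and 9.57 CPM in hilar cultures and had no count in any peripheral culture, so its mean was at least 132-fold higher in hilar cultures against a floor of 3 counts over the peripheral group.

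Of the detoxification genes 34 of 45 tested were below 0 (52.2% of all genes), 13 were lower in 3 of 3 mice (12.8% of all genes) and the median was -0.38. Cyp2s1, a cytochrome P450, was at 10.98, 0.261 and 4.55 CPM in hilar and 282, 51.02 and 18.9 CPM in peripheral cultures (log2 -4.33 ± 1.09, DESeq2 adjusted p = 2.79e-05), and Gsr, glutathione reductase, at 92.1, 142 and 132 against 165, 301 and 204 CPM (log2 -0.85 ± 0.24). Both had lower values in every hilar culture than in any peripheral culture. Of 30 tested unfolded protein response genes 25 were above 0 (47.8% of all genes) with a median of 0.21. Only 6 were higher in 3 of 3 mice (12.8% of all genes), and the medians by mouse were 0.42, -0.14 and 0.49. In WT mice 20 of the 30 were above 0 (median 0.14). Xbp1, its spliced transcription factor, was at 773, 700.3 and 713 against 602, 372 and 198 CPM (log2 1.04 ± 0.34). Of the mitochondrially encoded genes 15 of 15 were below 0, but the medians by mouse were 0.81, 0.30 and -2.29. The Ndr values of that list rested on mouse 1219, whose peripheral library had the highest mitochondrial share, and their median was 0.515 without that mouse. In WT mice 0 of the 15 were above 0 (median -1.28), with -1.31, -0.59 and -1.75 in mice 1221, 1225 and 1223. The lists for basement membrane, Wnt, YAP, interferon, inflammation and mucous or large duct genes had medians between -0.29 and 0.39, and in each the mice fell on both sides of 0. Among 25 lists with at least 10 tested members, 9 kept the sign of their median in every fit: proliferation, cholesterol synthesis, hypoxia and glycolysis, primary cilium, plasma proteins, detoxification, unfolded protein response, Notch targets, and immediate early and heat shock genes.

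**Figure D5:**
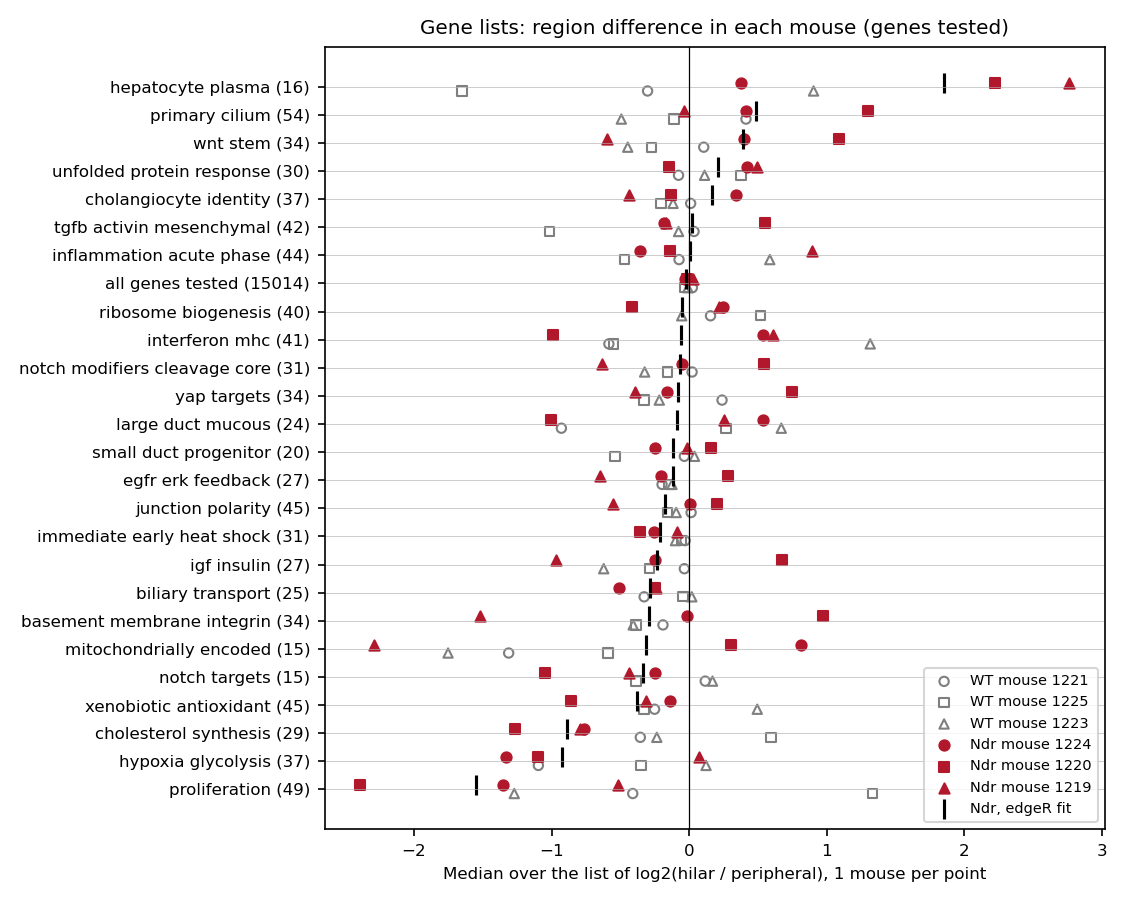
Median log2 ratio of hilar to peripheral CPM over the members of each gene list with at least 10 tested genes, for each Jag1 Ndr/Ndr mouse (filled), each WT mouse (open) and the Ndr edgeR fit (bar). Proliferation and cholesterol synthesis lie below 0 and plasma proteins above 0 in all 3 Ndr mice, while the 3 WT mice fall on both sides of 0 in each of these lists. The plasma protein points cover the 16 of 34 genes that passed the filter on low counts.

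Fewer genes had a small p-value for the regional difference in WT mice, and the test of the difference between genotypes called 0 genes in edgeR. In WT mice 0 of 15014 genes passed in edgeR (0%), 72 were at an unadjusted p under 0.05 (0.48%), and DESeq2 called 1 (0.00666%), Smoc1. For the regional difference of Ndr mice minus that of WT mice 0 genes passed in edgeR (0%), 413 were at an unadjusted p under 0.05 (2.75%), limma-voom called 0 (0%), and DESeq2 called 23 of the 14431 genes it tested (0.159%). For WT mice and for the interaction the share under 0.05 lay below the level of an even spread of p-values. In WT mice the bin from 0.95 to 1 held 1037 genes, against 72 in the lowest bin. The counts of 1270 and 72 therefore do not by themselves show a larger regional difference in Ndr mice. The reason for the low WT count was not tested. The 6 genes of smallest interaction p in the higher direction were C4b, Chpt1, Fgfr3, Ackr3, Alpl and St8sia4. Ackr3, a scavenger receptor for the chemokine CXCL12, was at 19.4, 20.4 and 5.22 CPM in hilar and 7.14, 1.04 and 0.103 CPM in peripheral Ndr cultures and at 2.87, 3.01 and 1.24 against 10.9, 13.5 and 3.83 CPM in the WT cultures of mice 1221, 1225 and 1223. Its log2 difference was 3.36 in Ndr and -1.92 in WT mice (edgeR interaction adjusted p = 1, DESeq2 adjusted p = 9.23e-05). The 6 in the lower direction were Sgsm1, Tpm2, Ehd2, Fgf13, Slc52a3 and Gtse1. Tpm2, a tropomyosin of actin filaments, was at 3.06, 3.66 and 13.9 against 15.6, 10.8 and 37.9 CPM in Ndr and 11.2, 32.7 and 42.02 against 9.92, 15.4 and 7.66 CPM in WT cultures (log2 -1.77 and 1.23; edgeR interaction adjusted p = 1, DESeq2 adjusted p = 0.0139). Medians of the interaction term were -1.37 for proliferation, -0.95 for cholesterol synthesis, 0.56 for primary cilium and -0.37 for glycolysis, against -0.03 over all genes.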

How the data were processed

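RNA-seq libraries from 12 organoid cultures were used, of which 6 came from Jag1 Ndr/Ndr mice. The deposited count table holds raw read counts per gene, which the authors obtained with featureCounts; the build that the submitters' processing notes name is GRCm39. The deposited normalized table holds a normalised signal, gene counts divided by size factors by the authors with DESeq2 1.34.0, per the submitters' processing notes, and served only as an alternative. For the aligner, the annotation release and the strand setting the entry is: not given in the sources used here. The kit named in the labels does not mark strand, so reads of a gene and of an antisense partner cannot be told apart.

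Every column was matched to a sample by its name, with 0 columns of other samples. Of 53700 genes 28444 had a count, and 15014 passed edgeR's filterByExpr by group. The fit was edgeR's quasi-likelihood test on TMM-scaled counts with mouse as a block, a region coefficient for each genotype, 12 libraries and 4 residual degrees of freedom, a prior count of 2, Benjamini-Hochberg adjustment over all genes tested and a threshold of 0.05 (R 4.3.3, edgeR 4.0.16, limma 3.58.1, DESeq2 1.42.0). The scripts were tested on simulated data with known answers. CPM values in the text use the same scaling. With mouse as a block, p-values measure the spread between mice of the hilar minus peripheral difference, shared over the 3 mice of each genotype. With 1 culture per mouse and region, that spread cannot be told apart from variation between cultures or libraries. Counts set the precision of low values: 3 counts over the Ndr peripheral group correspond to 0.0961 CPM, which covers counting error only.

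The labels give each library its mouse, so the numbers pair the samples. The correlation of same-mouse deviations from the group means was 0.14, -0.34 and -0.314 in mice 1224, 1220 and 1219, and -0.186 and -0.188 in the last 2 after removal of the length trend. A check on genes that sit on 2 separate levels was chosen after seeing the data.

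Names came from a table matched by gene identifier (52093 matched, 1607 without a symbol), used for names only. Of 1009 list symbols 1002 matched, 2 of them through a RefSeq synonym. Exon length was known for 14986 tested genes (99.8%), and its trend was a loess of span 0.5 within each library. The members and the gene lists were chosen with earlier results of these data known. Named genes were those past the threshold or, where fewer passed, the 12 of smallest p in each direction with at least 5 CPM in the higher group and the same sign in 3 mice. The rule also took Jag1, up to 4 genes per list, and 6 genes in each direction for the interaction. Other list members named for their role, among them Hmgcs1, Mki67, Krt7, Notch1, Hes1 and Alb, were chosen after their values were seen. Alternatives were no block, DESeq2, limma-voom, DESeq2 size factors in edgeR, no filter, limma-trend on log2 of the normalized table plus 1, Ndr libraries alone, each mouse left out and the length offset. Some list members are not reported here by name.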

Additional observations from a re-analysis of the deposited data

Results flagged for a closer look

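For 10 of the 140 named genes and for none of the 32 list medians, the hilar minus peripheral difference had one sign in all 3 Ndr mice and the opposite sign in all 3 WT mice. Over all tested genes 198 did so (1.32%). Some of the named genes were chosen for 1 sign in all 3 Ndr mice or for a small interaction p. The count among them is therefore not comparable with the share over all genes. The difference between the genotypes was tested as an interaction: edgeR gave an adjusted p of 1 for each of the 10, and DESeq2 gave the values below.

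The log2 difference of Ndr minus WT was 5.51 for C4b (DESeq2 adjusted p = 1.04e-07), 2.25 for Fgfr3 (DESeq2 adjusted p = 0.0022) and 2.89 for Chpt1 (DESeq2 adjusted p = 0.00037). It was 5.28 for Ackr3 (DESeq2 adjusted p = 9.23e-05) and 2.97 for Trf (DESeq2 adjusted p = 0.0306). In the other direction it was -2.99 for Tpm2 (DESeq2 adjusted p = 0.0139) and -2.04 for Gtse1, a G2 and S phase protein that binds microtubules (DESeq2 adjusted p = 0.136). Id2, an inhibitor of basic helix-loop-helix factors, stood at 1.13 (DESeq2 adjusted p = 0.583), Lbp, which binds lipopolysaccharide, at 2.99 (DESeq2 adjusted p = 0.081), and Xbp1 at 1.36 (DESeq2 adjusted p = 0.497).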

How the results depend on the processing

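All 24 genes of smallest p kept their direction in the fits run, and of the other 116 named genes 103 to 116 did, by fit (103 without mouse 1220, 106 without mouse 1219). The list medians for cholangiocyte identity and biliary transport were among those that changed sign in some fit, and 9 of 25 kept it in all. The count of called genes for the Ndr regional difference was 0 with the mouse block and 0 with no replicate block, where the pairing by mouse is ignored, and genes at an unadjusted p under 0.05 went from 1270 to 1548. Called Ndr genes were 346 with DESeq2, 1 without the filter on low counts (C4b, adjusted p = 0.0392), 14 with limma-trend on the normalized table and 0 to 1 with a mouse left out: Ctse without Ndr mouse 1219 (adjusted p = 0.0218) and Cyp4a12a without WT mouse 1221 (adjusted p = 0.0273). Ndr genes at an unadjusted p under 0.05 were 816 with the Ndr libraries alone, 1815 with the length offset and 796 to 2385 with a mouse left out, lowest without mouse 1224, where higher genes outnumbered lower ones (421 against 375), and highest without mouse 1219. In WT mice DESeq2 called 1 gene, and the count at an unadjusted p under 0.05 was 122 with DESeq2, 140 without the filter, 226 with the normalized table and 66 to 197 with a mouse left out. For the interaction 23 genes were called with DESeq2, 2 with the normalized table (Fgg and Gfra1) and 0 to 1 with a mouse left out, and the count at an unadjusted p under 0.05 was 727 with DESeq2, 633 with the length offset and 142 to 1581 with a mouse left out, lowest without WT mouse 1225 and highest without Ndr mouse 1219. The cause of these shifts was not tested. Libraries of 7129887 to 11494954 counts limit genes of a few CPM.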

Other observations

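4 further gene groups were chosen after their values were seen and are given as values. Over all genes tested 12.8% were higher and 12.8% were lower in 3 of 3 Ndr mice. Without overlap 7.49% were higher and 7.93% were lower. Of 10 tested genes of caveolae, the small invaginations of the plasma membrane, 7 were lower in hilar cultures in 3 of 3 Ndr mice and 6 did not overlap, with a median log2 difference of -0.71 in Ndr and 0.02 in WT mice. Cav1, the main coat protein, was at 11.7, 7.58 and 7.35 CPM in hilar and 203, 40.7 and 39.4 CPM in peripheral cultures, and Cavin1, which shapes the coat, was at 246, 217 and 160.3 against 686, 310.5 and 389 CPM. Of 8 tested keratins, 7 were lower in 3 of 3 mice and 5 did not overlap (median -1.42 in Ndr and 0.35 in WT mice).

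Of 17 tested complement genes 6 were higher and 1 was lower in 3 of 3 mice (12.8% of all genes in each direction), and 5 higher genes did not overlap (7.49% of all genes). The median was 1.07 in Ndr and -0.86 in WT mice. C4bp, an inhibitor of the C4b protein, was at 60.4, 56.7 and 75.9 CPM in hilar and 16.9, 13.5 and 4.75 CPM in peripheral cultures, with every hilar value above every peripheral value. Of 15 tested imprinted genes 4 were higher in 3 of 3 mice, Igf2, Meg3, Rian and Peg3, and 1 was lower (12.8% of all genes in each direction).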
